A study of Mus musculus with 7 samples.

Results

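Aphidicolin-only origins with WT peaks are replication origins that the study listed in embryonic stem cells treated with aphidicolin and in no other condition, although an untreated library has a peak of nascent DNA at the same place. The origin lists of the 3 conditions were merged wherever rows shared at least 1 bp on the autosomes and X, which gave 46639 regions. Of these, 9017 held rows of the aphidicolin list alone, and 7268 of the 9017 overlapped a peak of at least 1 untreated library (80.6%, 95% Wilson interval 79.8 to 81.4%). They made up 15.6% of all merged regions. The other 1749 aphidicolin-only regions, without such a peak, are called silent below. Intervals cover counting error only, and neighbouring regions are not independent.

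Short nascent strand sequencing located the origins: short DNA strands protected by an RNA primer mark where forks have just begun. The study has 7 samples of mouse embryonic stem cells (mESCs). The 2 APH libraries came from TetO-CDC6 mESCs given 0.5 µM aphidicolin for 2.5 h, and the 2 CDC6 libraries from TetO-CDC6 mESCs given 1 µg/ml doxycycline for 30 h. WT 2 came from untreated TetO-CDC6 mESCs, whereas WT 1 came from another untreated mESC line, and an Input sample was not analysed here. The APH and WT 2 cells therefore also carried the inducible CDC6 transgene, without doxycycline, and the 2 WT libraries differ in cell line by their labels. The peak names inside the WT 1 list, however, carry the tag of a second WT replicate, so which WT peak list belongs to which cell line is not certain, and both are used as labelled. Whether the libraries of 1 condition are separate cultures is not in the labels.

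Before S phase, the origin recognition complex and CDC6 load MCM helicases onto DNA in excess, and only some of the loaded sites fire in a given cell. Sites that stay unused under normal conditions, called dormant or flexible origins, can fire when forks slow. Aphidicolin inhibits the replicative DNA polymerases and slows forks, and forced CDC6 expression raises the capacity to load helicase. Mammalian origins have no fixed consensus sequence, but many lie at promoters, at CpG islands and near G-quadruplex motifs, which are runs of G that can fold into a 4-stranded structure. The members were chosen by the same lists and peaks that are described here, with 1 origin list per condition, so counts, shares, medians and ranks are given as descriptions and no test was made.

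The sequences shown first are the promoter windows that members with the strongest APH peaks cover whole, because they let the letters of an aphidicolin-only origin be read. RefSeq promoter windows on GRCm38.p6, the build of mm10, run from 250 bases before to 50 bases after a gene's start. Of the members, 180 overlapped 208 such windows, and 71 covered 83 windows whole. The 5 members with the highest APH ranks among the 71 lay at Dmpk, the myotonic dystrophy protein kinase gene (chr7:19083608-19083907, plus strand), at Slc27a1, which encodes a fatty acid transporter (chr8:71568621-71568920, plus strand), and at Siva1, an apoptosis regulator gene (chr12:112644578-112644877, plus strand). The other two lay at Cgn, the gene of the tight junction protein cingulin (chr3:94786433-94786732, minus strand), and at Nav1, a neuron navigator gene (chr1:135585306-135585605, minus strand). The windows are written 5′ to 3′ on the strand of the gene, and capitals mark a G-quadruplex motif, here 4 runs of GGG or of CCC (each run may be longer) with gaps of 1 to 7 bases of any kind, so that a long unbroken run can count as more than 1 run with a gap inside it.
Dmpk: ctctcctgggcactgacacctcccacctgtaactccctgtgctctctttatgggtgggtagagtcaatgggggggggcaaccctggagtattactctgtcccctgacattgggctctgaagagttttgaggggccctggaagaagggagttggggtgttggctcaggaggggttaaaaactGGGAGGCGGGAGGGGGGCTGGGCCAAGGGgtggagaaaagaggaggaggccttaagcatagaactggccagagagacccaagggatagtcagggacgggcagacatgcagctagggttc
Slc27a1: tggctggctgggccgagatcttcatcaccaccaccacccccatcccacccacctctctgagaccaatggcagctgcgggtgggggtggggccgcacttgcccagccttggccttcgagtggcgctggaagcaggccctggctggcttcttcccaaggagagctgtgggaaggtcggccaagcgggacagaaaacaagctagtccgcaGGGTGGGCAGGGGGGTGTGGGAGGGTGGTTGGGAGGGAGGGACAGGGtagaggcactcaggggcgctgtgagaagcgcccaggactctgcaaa
Siva1: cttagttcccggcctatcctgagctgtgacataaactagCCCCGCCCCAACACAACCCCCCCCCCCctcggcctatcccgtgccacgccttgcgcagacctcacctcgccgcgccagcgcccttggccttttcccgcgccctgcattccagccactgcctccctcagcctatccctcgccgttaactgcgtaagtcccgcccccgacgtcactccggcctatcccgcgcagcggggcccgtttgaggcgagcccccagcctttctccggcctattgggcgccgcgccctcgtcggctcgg
Cgn: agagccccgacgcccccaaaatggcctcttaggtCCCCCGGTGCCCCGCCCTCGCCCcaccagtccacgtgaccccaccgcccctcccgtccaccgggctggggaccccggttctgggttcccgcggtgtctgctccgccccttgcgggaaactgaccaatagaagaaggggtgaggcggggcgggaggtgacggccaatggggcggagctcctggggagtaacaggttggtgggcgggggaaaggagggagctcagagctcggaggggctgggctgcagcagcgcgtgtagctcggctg
Nav1: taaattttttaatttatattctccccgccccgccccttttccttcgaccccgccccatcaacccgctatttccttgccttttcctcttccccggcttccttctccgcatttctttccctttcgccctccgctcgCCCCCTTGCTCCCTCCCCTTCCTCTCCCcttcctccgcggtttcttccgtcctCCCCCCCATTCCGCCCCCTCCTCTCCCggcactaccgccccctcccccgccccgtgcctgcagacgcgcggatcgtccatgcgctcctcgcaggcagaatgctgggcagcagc

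All 5 windows held the motif on the plus or the minus strand, in 29 capital bases for Dmpk, 47 for Slc27a1, 27 for Siva1, 23 for Cgn and 55 for Nav1. The GC content was 58.3% in the Dmpk window, 65.7% in the Slc27a1 window, 69.0% in the Siva1 window, 70.3% in the Cgn window and 63.3% in the Nav1 window. CpG dinucleotides numbered 2 in the Dmpk window and 31 in the Siva1 window, so both CpG-poor and CpG-rich promoters were among them. The authors' fold over the control at the Dmpk member was 5.73 and 5.67 in the APH libraries, 4.57 and 4.27 in the CDC6 libraries, and 4.73 and 3.38 in the WT libraries. At the Nav1 member it was 3.78 and 4.17 in the APH libraries, 2.62 and 3.54 in the CDC6 libraries and 3.26 in WT 1, with no peak in WT 2. These folds were deposited library by library and read depth is unknown, so their order between libraries is not a comparison of origin use.

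Promoter windows under members had an intermediate base composition. Their median GC content was 58.7% (208 windows), against 64.3% under regions of the APH and CDC6 lists with a WT peak (636 windows), 67.7% under regions of all 3 lists (6111 windows) and 49.3% in 23537 windows with no merged region. The observed over expected CpG ratio had a median of 0.451 under members, 0.740 under APH and CDC6 regions, 0.850 under regions of all 3 lists and 0.266 in windows with no merged region. The median ratio under members thus lay between those of the shared origins and of windows without origins. A G-quadruplex motif was in 49.5% of the windows under members (interval 42.8 to 56.3%), against 41.4% under APH and CDC6 regions, 41.9% under regions of all 3 lists, 10.9% in windows with no merged region and 18.6% of all 32619 windows. Among windows with 55 to 65% GC, a range chosen after the values were seen, 56 of 105 windows under members held the motif (53.3%, interval 43.8 to 62.6%), against 33.2% under APH and CDC6 regions, 28.5% under regions of all 3 lists and 22.3% with no merged region. The motif TATAAA, searched on both strands, was in 9.13% of the windows under members, against 4.40% under APH and CDC6 regions, 4.04% under regions of all 3 lists and 17.1% with no merged region. Only 12 windows lay under silent regions, too few to describe. A motif match says only that the letters are there, and most members lie at no promoter window, so these values describe 180 of the 7268 members. A window counted as under a region if they overlapped at all. Members covered 83 of the 208 whole, so in the others the motif can lie outside the member. The shared classes are wider, with medians of 788 and 1168 bp against 547 bp, and the shares were not matched for cover.

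A limit of the lists bears on the name of these origins. Each library has 2 deposited lists, MACS2 peaks and a second list with scores of unknown meaning, and the file labels of the second lists go against those of the peaks. All 20178 rows of the WT origin list recur in the second list with the label APH 1, and they also met the second list labelled WT 1 (100%), the WT 1 peaks (99.4%) and the WT 2 peaks (100%). How the authors combined libraries into a condition list is not stated. Of these 4 lists, 933 members met 1 (12.8%), 3625 met 2 (49.9%), 2577 met 3 (35.5%) and 133 met all 4 (1.83%). Among the 2577 that met 3, the missing list was the second list labelled APH 1 for 1086, the second list labelled WT 1 for 854, the WT 1 peaks for 491 and the WT 2 peaks for 146. The rule gave every member a WT peak, so its absence from the WT list is not an absence of untreated signal. The WT 1 and WT 2 peaks counted here are those the rule used, so the counts only describe the members. The CDC6 origin list goes in the same way with the CDC6 1 and CDC6 2 peaks and the second lists labelled CDC6 2 and APH 2. Of these 4 lists, 902 members met none (12.4%), 2697 met 3 (37.1%) and 143 met all 4 (1.97%). The APH origin list, which defines the members, has the same conflict of labels. All its 31653 rows recur in the second list labelled CDC6 1, and 100% met the second list labelled WT 2. Only 74.2% and 74.4% met the second lists labelled APH 1 and APH 2, whereas 99.98% and 100% met the APH 1 and APH 2 peaks.

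The untreated signal came unequally from the 2 WT libraries. A WT 1 peak alone overlapped 1924 members (26.5%), peaks of both WT libraries 2346 (32.3%), and a WT 2 peak alone 2998 (41.2%). WT 1, labelled as the library from the other cell line, has more peaks (94747) than WT 2 (81056), yet it met 4270 members, against 5344 for WT 2. The number of members thus depends on which WT library is read: it is 4270 without WT 2 and 5344 without WT 1. Most overlaps were more than a touch. The WT 1 peaks covered 76.7% of the members they met over their full length and the WT 2 peaks 73.2%, and under 50% of the length was covered in 9.39% and 11.3%. For 295 members (4.06%), every WT peak also reached a row of the WT list next to the member.

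Nearly all members had peaks in both APH libraries, 7265 of 7268, and most had signal under CDC6 as well. A CDC6 1 peak overlapped 4996 members (68.7%) and a CDC6 2 peak 4517 (62.1%). Both shares were lower than over all merged regions, at 88.3% and 85.8%, which include the rows of the CDC6 list. At least 1 CDC6 library had a peak at 6143 members (84.5%, interval 83.7 to 85.3%), both had one at 3370 (46.4%), and neither had one at 1125 (15.5%). Peaks in all 4 libraries outside aphidicolin were found at 1533 members (21.1%). Silent regions met a CDC6 1 peak in 32.5% and a CDC6 2 peak in 57.3%. The order of the CDC6 libraries was thus opposite among members and silent regions.

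The support patterns differed among members. Of the 2346 members with both WT peaks, 1533 had both CDC6 peaks, 455 a CDC6 1 peak alone, 214 a CDC6 2 peak alone and 144 neither. Of the 2998 with a WT 2 peak alone, 996 had both CDC6 peaks, 937 a CDC6 1 peak alone, 526 a CDC6 2 peak alone and 539 neither. Of the 1924 with a WT 1 peak alone, 841 had both CDC6 peaks, 234 a CDC6 1 peak alone, 407 a CDC6 2 peak alone and 442 neither. A single CDC6 peak was therefore mostly from CDC6 1 where WT 2 had the peak, and mostly from CDC6 2 where WT 1 alone had it. The labels tie no CDC6 library to a WT library, and the cause was not tested.

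**Figure D1:**
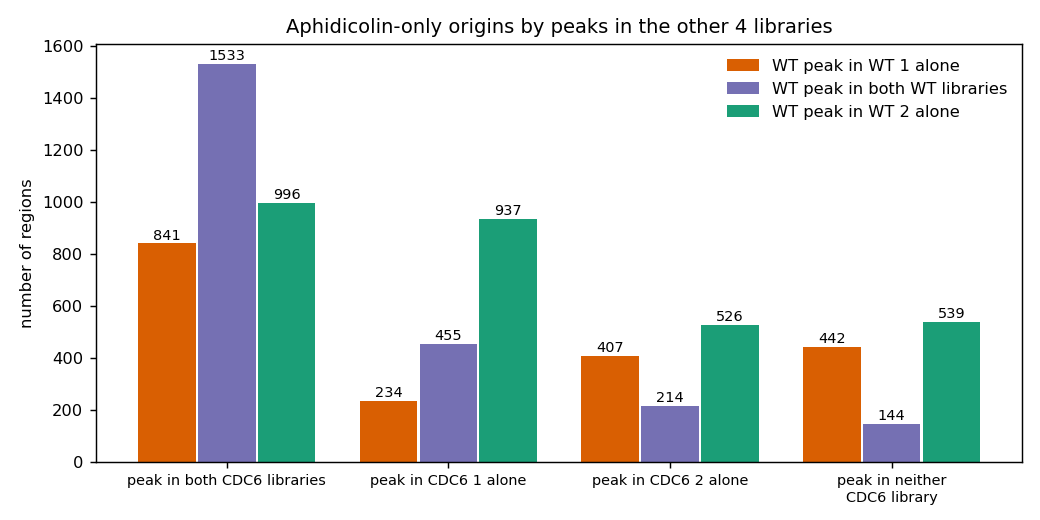
Number of members, the aphidicolin-only origins with a WT peak, by the WT libraries and the CDC6 libraries that have a peak there; each bar is a count of regions, grouped by CDC6 libraries and coloured by WT libraries. The largest of the 12 patterns, 1533 members, has peaks in both WT and both CDC6 libraries.

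Peak strength was read as the percentile rank, by the authors' −log10 q-value, of the strongest peak of a region within its own library. In the APH libraries members had median ranks of 68.7 in APH 1 and 63.3 in APH 2. Over the members with a peak in the library, the median rank was 48.0 in CDC6 1, 53.0 in CDC6 2, 60.0 in WT 1 and 58.6 in WT 2. The lists differ in length, so the order of ranks between libraries is not an order of signal. Members were weaker than origins shared between lists, whose median ranks in APH 1 were 78.8 for APH and CDC6 regions and 89.5 for regions of all 3 lists, and stronger than silent regions at 58.8. In APH 2 the values were 63.3 for members, 51.5 for silent regions, 78.8 for APH and CDC6 regions and 89.6 for regions of all 3 lists. The rule fixes part of this, since members were kept for presence in some lists and absence from others.

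At 5117 members (70.4%) the stronger WT peak was in the upper 50% of its own library. This is not a high share. Over all merged regions with a peak in the library, the 25th percentile of rank was 50.2 in WT 1 and 52.8 in WT 2. Their median ranks were 75.5 and 74.8, above the 60.0 and 58.6 of members. Members with both CDC6 peaks had median ranks of 72.6 in APH 1 and 70.0 in APH 2, against 59.1 and 51.0 for members with neither. The middle 50% of members were 501 to 610 bp wide with a median of 547 bp, against medians of 523 bp for silent regions, 788 bp for APH and CDC6 regions and 1168 bp for regions of all 3 lists.

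**Figure D2:**
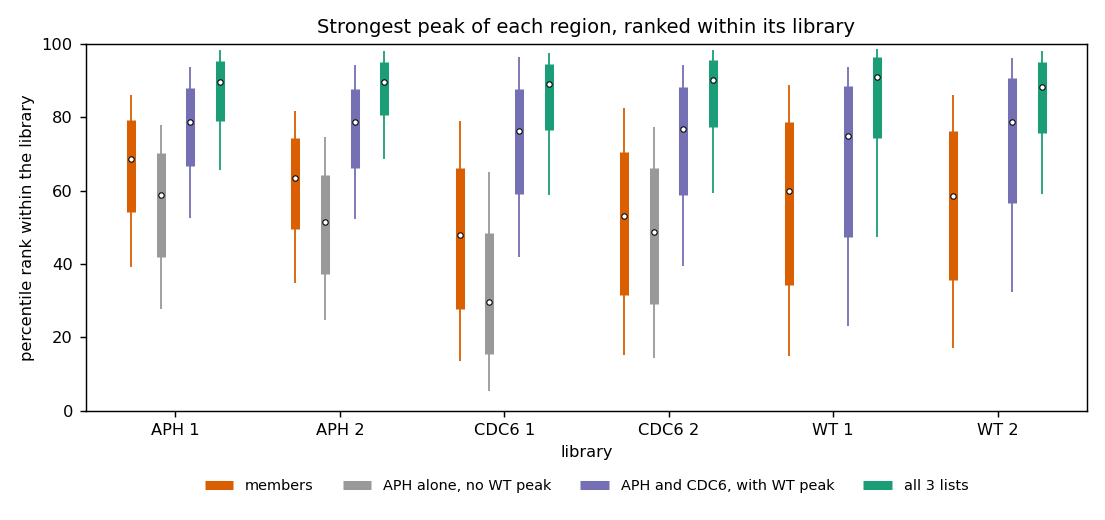
Percentile rank (0 to 100, 100 the strongest) of the strongest peak of each region within its library, for members (aphidicolin-only origins with a WT peak), silent regions, regions of the APH and CDC6 lists with a WT peak and regions of all 3 lists; circles are medians, thick bars the 25th to 75th percentiles and thin lines the 10th to 90th, over regions with a peak. In the APH libraries members lie between silent regions and the shared classes.

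Members lay mostly away from gene ends. A gene end is here a position within 1 kb of either end of one of 21631 protein-coding genes, since the gene table gives no strand. Of the members 401 lay at gene ends (5.52%, interval 5.02 to 6.07%), against 1.32% of silent regions, 9.52% of APH and CDC6 regions, 45.3% of regions of all 3 lists and 19.8% of all merged regions. Gene bodies held 2887 members (39.7%), against 52.6% of all merged regions. The share was 31.5% for silent regions, 40.7% for APH and CDC6 regions and 71.4% for regions of all 3 lists. Of the 401, 183 were within 1 kb of the start of a protein-coding gene in the promoter table. Promoter windows of protein-coding genes overlapped 104 of the 401. The 180 members described above overlapped any RefSeq promoter window, so they need not lie at these gene ends. With a window of 5 kb the share of members at gene ends was 15.6%, against 29.7% of all merged regions. It was then 7.55% for silent regions, 17.3% for APH and CDC6 regions and 54.3% for regions of all 3 lists.

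The position of members went with the WT library that had the peak. Gene ends held 165 of the members with a WT 1 peak alone (8.58%, interval 7.41 to 9.91%) and 201 of those with both peaks (8.57%, interval 7.50 to 9.77%), against 35 of those with a WT 2 peak alone (1.17%, interval 0.841 to 1.62%). Gene bodies held 49.9% and 46.2% of the members with a WT 1 peak alone or both peaks, against 28.1% with a WT 2 peak alone. Members over 100 kb from any protein-coding gene made up 14.1%, 17.5% and 37.4% of those with WT 1 alone, both and WT 2 alone. The share was 24.8% for all members and 20.7% for all merged regions. It was 34.5% for silent regions and 29.4% for APH and CDC6 regions. The share at gene ends was higher for members with a WT 1 peak than for those with a WT 2 peak alone on 20 of 20 chromosomes, and so was the share in gene bodies. Over all peaks, 15.9% of WT 1 peaks and 12.3% of WT 2 peaks lay at gene ends, against 13.5 to 15.5% in the APH libraries and 15.9 to 17.9% in the CDC6 libraries.

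**Figure D3:**
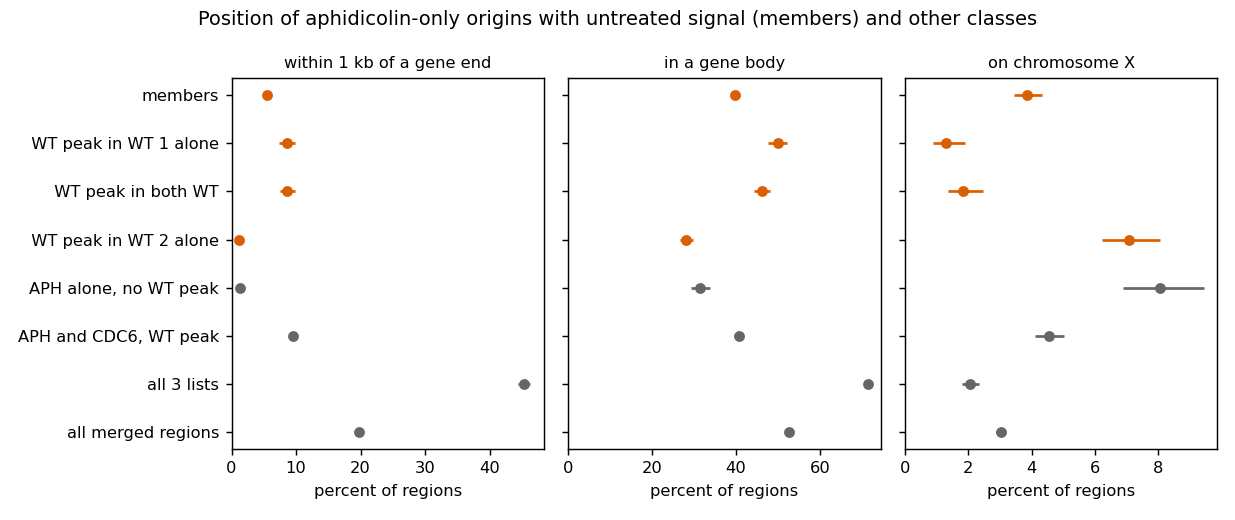
Share (percent) of members, the aphidicolin-only origins with a WT peak, and of other classes of regions at gene ends, in gene bodies and on X, with members also split by the WT library that has the peak; error bars are 95% Wilson intervals and cover counting error only. Members with a WT 2 peak alone are at gene ends in 1.17%, against 8.58% with a WT 1 peak alone.

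**Figure D4:**
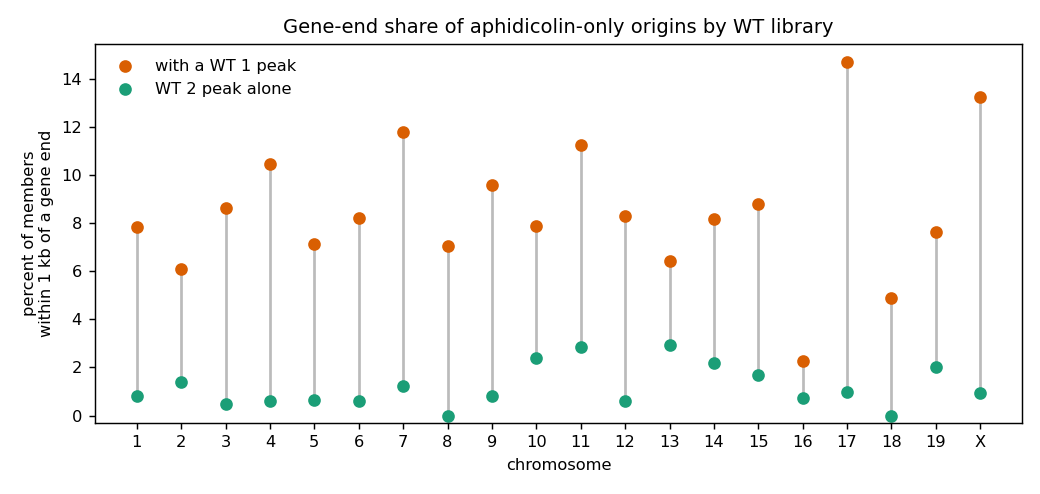
Share (percent) of members, the aphidicolin-only origins with a WT peak, within 1 kb of a gene end on each chromosome, for members with a WT 1 peak and for members with a WT 2 peak alone; lines join both points of a chromosome. The point for members with a WT 1 peak is the higher on 20 of 20 chromosomes.

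The split by WT library was also present in other classes. Among APH and CDC6 regions the share at gene ends was 18.9% with a WT 1 peak alone, 13.3% with both and 1.87% with a WT 2 peak alone. Among regions of the CDC6 list alone it was 24.6%, 25.9% and 2.60%. It therefore goes with the WT library across these classes, and which feature of the libraries it goes with was not tested. The nearest row of the WT list lay at a median of 31.4 kb from members with a WT 1 peak alone, 31.2 kb from members with both and 59.1 kb from members with a WT 2 peak alone. A WT origin lay within 10 kb of 19.2%, 23.5% and 10.3% of these members.

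The share at gene ends also went with CDC6 peaks. Gene ends held 309 of the 3370 members with both CDC6 peaks (9.17%), against 2.21% with CDC6 1 alone, 2.44% with CDC6 2 alone and 2.49% with neither. Within members with a WT 1 peak alone, the share was 12.4% with both CDC6 peaks and 5.43% with neither. Within members with a WT 2 peak alone it was 2.21% with both and 0.186% with neither. Members at gene ends had median ranks of 74.3 in APH 1 and 73.5 in APH 2, 80.9 in WT 1 and 47.1 in WT 2. Members between genes had median ranks of 67.5 and 60.8 in APH 1 and APH 2, 52.4 in WT 1 and 60.8 in WT 2. The median rank was thus higher at gene ends in WT 1 and both APH libraries, and lower there in WT 2.

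Members were spread over all chromosomes. They made up between 13.0% (chromosome 19) and 16.8% (chromosome 10) of the merged regions of an autosome, and 19.8% of those of X. X held 280 members (3.85%, interval 3.43 to 4.32%), against 8.06% of silent regions, 4.54% of APH and CDC6 regions and 2.06% of regions of all 3 lists. Of the X members 91.1% had a WT 2 peak and 24.3% a WT 1 peak, and 75.7% had a WT 2 peak alone. CDC6 1 had a peak at 58.9% of them and CDC6 2 at 28.9%. X held 1.30% of members with a WT 1 peak alone, 1.83% with both and 7.07% with a WT 2 peak alone. Among APH and CDC6 regions these shares were 2.86%, 5.77% and 3.15%, so the order differed there. Among regions of the CDC6 list alone with a WT peak they were 1.29%, 1.49% and 4.17%. Over all peaks, X holds 4.15% and 3.55% of APH 1 and APH 2 peaks, 2.24% and 2.73% of CDC6 1 and CDC6 2 peaks, 1.75% of WT 1 peaks and 3.30% of WT 2 peaks. The WT libraries thus stand in the same order as among members, and the CDC6 libraries in the opposite order. The part of the cell lines in the X share was not tested. Chromosome 8 holds 8.26% of WT 1 peaks and 4.86 to 5.53% of the peaks of every other library, and 22.5% of the members there had a WT 2 peak alone, against 27.6% or more on each other chromosome. It held 5.56% of all members, near its 5.41% of all merged regions. The share was 2.92% for silent regions, 4.73% for APH and CDC6 regions and 5.74% for regions of all 3 lists. Without chromosome 8 the share of members at gene ends stayed at 5.52%.

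Members with high APH ranks in several positions were picked out, 19 in all, of which 10 lacked a peak in 1 of the WT libraries. The members with the highest APH ranks away from gene ends, chr14:7247344-7247979 and chr14:6040874-6041533, had WT 2 peaks with ranks of 99.7 and 99.4 and no WT 1 peak, and lie among repeated genes at the start of chromosome 14. At the member inside Npas1, which encodes a neuronal basic helix-loop-helix transcription factor (chr7:16471342-16472130), the fold over the control was 8.56 and 7.72 in the APH libraries, 5.60 and 5.72 in the CDC6 libraries, and 4.40 and 4.39 in the WT libraries. Its ranks were 99.4 and 98.3 in the APH libraries, 95.6 and 97.0 in the CDC6 libraries and 93.7 and 96.9 in the WT libraries. All 6 peaks were thus in the top 10% of their library. Of the 4 lists that go with the WT origin list, only the second list labelled WT 1 lacked it, while all 4 that go with the CDC6 list had it.

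Mad2l2 encodes REV7, a subunit of the translesion polymerase zeta. The member in its body (chr4:148132482-148133007) had folds of 7.24 and 7.23 in the APH libraries, 6.13 and 5.74 in the CDC6 libraries and 5.95 and 5.66 in the WT libraries. Its ranks were 98.7 and 98.1 in the APH libraries and 97.4 and 99.1 in the WT libraries. The second lists labelled APH 1 and WT 1 lacked it.

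A member 3.21 kb from Hdgf, a growth factor gene (chr3:87902201-87902879), ranked high within the APH and WT libraries and lower within the CDC6 libraries. Its folds were 7.30 and 7.84 in the APH libraries, 2.89 and 2.92 in the CDC6 libraries and 5.63 and 4.67 in the WT libraries. The ranks in CDC6 1 and CDC6 2 were 67.0 and 56.9, against 97.2 in WT 1 and 98.1 in WT 2. The member 1.74 kb from Bicc1, which encodes an RNA-binding protein (chr10:71161429-71161968), had folds of 6.08 and 6.72 in the APH libraries, 6.18 and 6.56 in the CDC6 libraries and 7.74 and 4.47 in the WT libraries.

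At gene ends, the strongest members in APH were at Gm2237, Gm3636, Gm3173, Padi2, Gm10406, Kdm4a, Tmem229b and Dmpk with its neighbour Dmwd. The 4 Gm members are at predicted genes in the first 20 Mb of chromosome 14, where near-identical gene copies can share or split reads, so their folds are uncertain. There, 50 members had a WT 1 peak in 38.0% and a WT 2 peak in 92.0%. Padi2, a peptidylarginine deiminase gene, had a member at chr4:140907273-140907740 with folds of 6.08 and 6.08 in the APH libraries, 5.20 and 5.44 in the CDC6 libraries and 3.92 and 4.48 in the WT libraries. Kdm4a encodes a histone H3 demethylase, and its member at chr4:118136793-118137377 had folds of 6.31 and 5.41 in the APH libraries, 5.14 in CDC6 2 with no peak in CDC6 1, and 4.02 and 5.74 in the WT libraries. At Tmem229b, a transmembrane protein gene, the folds were 5.91 and 5.77 in the APH libraries, 5.33 and 4.79 in the CDC6 libraries and 4.89 and 3.41 in the WT libraries.

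Among the members with no CDC6 peak, the 4 strongest in APH all had a WT 2 peak and no WT 1 peak. In the body of Luzp2, a leucine zipper protein gene (chr7:54924427-54925193), the folds were 4.96 and 6.35 in the APH libraries and 4.12 in WT 2. The other 3 lay far from genes, 208 kb from Plet1, 181 kb from Casp1 and 256 kb from Mctp2. Near Plet1 (chr9:50285738-50286246) the folds were 4.94 and 7.60 in the APH libraries and 4.45 in WT 2. Near Casp1 (chr9:5116931-5117560) they were 6.31 and 6.36 in the APH libraries and 2.98 in WT 2, whose rank of 80.0 was the lowest WT rank among the 19 strong members named here and above.

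**Figure D5:**
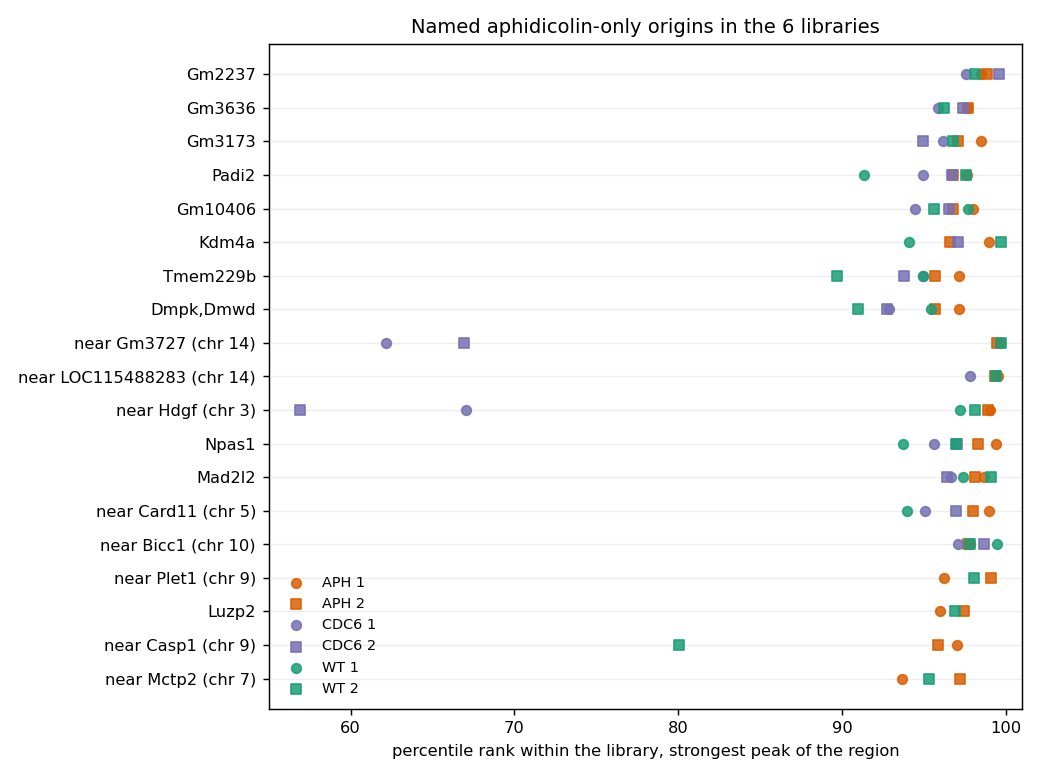
Percentile rank (0 to 100, 100 the strongest) within each of the 6 libraries for the 19 named members, the aphidicolin-only origins with a WT peak that ranked highest in the APH libraries within 4 subsets (at gene ends, elsewhere, with peaks in both WT and both CDC6 libraries, and with no CDC6 peak); a missing point means no peak. Most points of all 3 conditions lie above 90, and the CDC6 points near Gm3727 and Hdgf lie between 56.9 and 67.0.

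Most long genes held no member, and a few held several. Of 4941 protein-coding genes that span at least 50 kb, 1395 had the midpoint of a member in the body (28.2%) and 126 had 3 or more. Lrmda had 7 members, and A830018L16Rik, Immp2l, Pcdh15 and Robo2 had 6 each. These genes were picked for high counts and span 562 to 1555 kb. They held 3.86 (Pcdh15 and Robo2) to 10.7 (A830018L16Rik) members per Mb, against 2.47 per Mb in genes of at least 50 kb. Members were 7 of 13 merged regions in Lrmda, 6 of 26 in Pcdh15 and 6 of 25 in Robo2. Zbtb7c, Rbfox3, Slit3 and Dlgap1 were among those with 5. Of the 1943 members in genes of at least 50 kb, 1234 had a WT 1 peak and 1314 a WT 2 peak. The counts were near each other in Lrmda (5 with a WT 1 peak, 4 with a WT 2 peak), Zbtb7c (3 and 4) and Dlgap1 (4 and 4). They were 3 and 5 in both A830018L16Rik and Pcdh15. In other genes 1 WT library had most of the peaks. All 5 members in Rbfox3, the neuronal nuclear antigen gene, had a WT 1 peak and 2 of them a WT 2 peak. All 5 in Slit3, a guidance ligand gene, had a WT 1 peak and 1 a WT 2 peak. None of the 6 members in Robo2, a receptor for Slit ligands, had a WT 1 peak, and all 6 had a WT 2 peak. In Immp2l, a mitochondrial peptidase gene, 1 had a WT 1 peak and 5 a WT 2 peak.

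Over all protein-coding genes, 2310 of 21631 had a member in the body, and members were 12.1% of the merged regions there. The lists of replication genes are small, and their counts are not set apart from this by any test. Of 30 licensing and firing genes 2 held a member: Cdc45, a part of the replicative helicase, and Orc5, a subunit of the origin recognition complex. Of 23 genes of the replicative polymerases, primase and their loaders, 3 held one: Rfc2, of the clamp loader, Prim2, a primase subunit, and Pola1, the catalytic subunit of polymerase alpha, which aphidicolin inhibits. None of 24 genes of the ATR checkpoint and fork protection held a member, with 18 merged regions there. Members were 8.33% of the merged regions in the licensing and firing genes and 14.3% in the polymerase and primase genes. The Cdc45 member (chr16:18809932-18810481) had folds of 3.51 and 3.08 in the APH libraries, 2.77 and 2.86 in the CDC6 libraries and 2.77 and 2.93 in the WT libraries. The Prim2 member (chr1:33587923-33588421) had folds of 3.15 and 3.22 in the APH libraries, 2.32 and 3.74 in the CDC6 libraries and 2.73 and 2.43 in the WT libraries.

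Common fragile sites are regions that break when aphidicolin slows forks, and most lie in very long genes. Of 19 orthologue genes of such sites 17 held a member, with 56 members in 27.3 Mb. That is 2.05 members per Mb, against 2.47 per Mb in genes of at least 50 kb and 2.77 per Mb over the whole span. As a share of the merged regions in the genes it was 16.1%, against 13.9% in genes of at least 50 kb and 15.6% over the span. Of the 1943 members in genes of at least 50 kb, 1234 had a WT 1 peak and 1314 a WT 2 peak. In the fragile site genes only 17 of the 56 had a WT 1 peak, whereas 47 had a WT 2 peak. The strongest was in Auts2 (chr5:131474787-131475357), with folds of 3.67 and 4.66 in the APH libraries, 2.30 in CDC6 1 and 3.55 and 3.13 in the WT libraries. Macrod2 and Wwox held 4 members each. The strongest in Macrod2 had folds of 3.17 and 3.74 in the APH libraries and 3.73 in WT 2, with no peak under CDC6 or in WT 1. Of 30 long neuronal genes 25 held a member, with 62 members at 1.77 per Mb and 16.4% of the merged regions. Of these 23 had a WT 1 peak and 52 a WT 2 peak. The first members named by rank were in Galntl6, Csmd1, Lingo2 and Dab1.

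Of 20 pluripotency genes 3 held a member, Lin28a, Myc and Esrrb, and members were 13.6% of the merged regions there, close to the share in all protein-coding genes. Lin28a encodes an RNA-binding protein of stem cells, and its member (chr4:134016618-134017190) had folds of 3.76 and 3.66 in the APH libraries, 3.82 and 4.38 in the CDC6 libraries and 4.59 and 2.42 in the WT libraries. The Myc member (chr15:61987898-61988447) had folds of 3.17 and 3.42 in the APH libraries, 4.47 and 4.37 in the CDC6 libraries and 3.97 and 2.66 in the WT libraries. Of 38 developmental transcription factor genes 4 had a member, Pax2, Pax7, Dlx5 and Pax6, and 4.92% of the merged regions in their bodies were members, against 12.1% in all protein-coding genes. The Pax2 member (chr19:44834008-44834538) had folds of 4.47 and 5.01 in the APH libraries, 4.43 and 4.38 in the CDC6 libraries and 6.08 and 4.01 in the WT libraries.

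The overlap threshold concerned few regions. Members that shared under 50 bp with their WT peaks numbered 41, and 38 silent regions lay within 50 bp of a WT peak. Just inside, chr11:16117181-16117788 shared 1 bp and chr13:12692568-12693165 shared 4 bp. Just outside, chr12:64755888-64756387 abutted a WT peak and chr15:3741944-3742384 lay 2 bp from one. The member at chr11:16117181-16117788 had folds of 3.72 and 3.05 in the APH libraries, and the region at chr12:64755888-64756387 had 3.37 and 2.77. The weakest WT peaks that made a region a member had −log10 q-values of 1.07, on chromosome 12, and 1.13, in Slit3, close to the end of the lists at 1.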

How the data were processed

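The members and the gene lists were chosen with earlier results of these data known. After the files were read, 1 symbol in the lists was respelled and 1 gene was removed from the fragile site list. Peaks were deposited per library in the layout of MACS2, with the authors' score, their fold ratio over a control and their −log10 p-value and q-value per peak. No deposited peak has a q-value above 0.1, and the peak names show 1 shared control. The condition lists and second lists hold 2 scores per region, deposited by the authors with no stated meaning. Per the submitters' processing notes, the tools were MACS2 2.0.10, bedtools 2.23.0, BWA 0.7.10, Picard 1.107 and SAMtools 0.1.19, with settings that the sources used here do not give. Coordinates are mm10.

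Lists were merged at 1 bp overlap and set against RefSeq GRCm38.p6 genes and promoter windows with Python 3.11.15, numpy 2.4.6 and pandas 2.3.3; figures used matplotlib 3.10.9. The interval code was tested on simulated intervals. Peaks numbered 74540 in APH 1, 71435 in APH 2, 72384 in CDC6 1, 82071 in CDC6 2, 94747 in WT 1 and 81056 in WT 2. Read depth is unknown, and these numbers limit the precision. No test was made, because the readouts chose the members.

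Named members were, by the lower of both APH ranks, the 8 highest at gene ends, the 6 highest elsewhere, the 4 highest with peaks in both WT and both CDC6 libraries and the 4 highest with no CDC6 peak. Also named were the 10 genes of at least 50 kb with most members, up to 4 genes per list and the members nearest to the thresholds. Some genes that this rule names are not reported here. Printed promoters were the 5 covered whole with the highest APH rank, chosen after the files were read. The alternatives varied the overlap, the −log10 q-value, the merging gap, the gene end window, the ranking and the libraries. No genome was used here.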

Additional observations from a re-analysis of the deposited data

How the results depend on the processing

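Each value was recomputed under the alternatives that apply to it, 58 in all, of which 41 moved it by less than its interval (counts by less than 1.5 times) and 17 moved it further. When a WT library was left out, the number of members ranged from 4270 to 5344, the share at gene ends from 4.42 to 8.57%, the share in gene bodies from 36.0 to 47.9%, the share on X from 1.59 to 4.77% and the median width from 546 to 555 bp. The share with a CDC6 peak ranged from 62.1 to 87.2% when a WT or a CDC6 library was left out. With WT peaks of −log10 q-value of at least 2, gene bodies held 40.9%, the median width was 551 bp and 86.1% had a CDC6 peak. With CDC6 peaks of at least 2, 73.3% had one. With a gene end window of 5 kb, 15.6% lay at gene ends, against 29.7% of all merged regions. A WT peak over at least 50% of the region, merging across 500 bp, peaks required in both APH libraries, ranks by fold, and leaving out chromosome 8 or the first 20 Mb of chromosome 14 (both chosen after seeing the data) moved no value beyond that. The planned GC content and motif share over whole regions were not run, since no genome was used here. No paired analysis was possible because the results come from no test. Unknown read depth limits what an absent peak means.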
